A study of Homo sapiens with 4 samples.

Results

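The myogenic regulatory factors (MRFs) MYOD1, MYF5, MYF6 and MYOG were examined as a set of 4 genes, chosen by name from the 39323 genes listed in each library. They were followed in RD and JR1 cells, established human lines of fusion-negative rhabdomyosarcoma (FN-RMS), a childhood tumor with features of skeletal muscle precursors. Cells of each line had been infected with a lentiviral vector for an shRNA against SKP2, the substrate-binding subunit of an SCF ubiquitin ligase (shSKP2.2, labelled a SKP2 knockdown), or for a non-targeting shRNA (shSCR, labelled wild type). Both groups of a line therefore carried a lentiviral hairpin, and the depleted cells rested on a single hairpin sequence. All cells were kept in high-glucose medium with serum, and the time between infection and RNA extraction is not given in the sources used here. Each line and condition gave 1 library of poly-A selected RNA, 4 in all. Differences between libraries thus have no replicate check, and they are given as sizes without a p-value.

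MRFs are transcription factors of the basic helix-loop-helix (bHLH) class. They pair with the widely expressed E proteins and bind the E-box, a short DNA word found at the promoters and enhancers of muscle genes. MYF5 and MYOD1 commit cells to the muscle lineage, MYOG drives the terminal differentiation of myoblasts, and MYF6 (also called MRF4) acts in commitment and again late in fiber maturation. ID proteins lack the DNA-binding part and hold E proteins away from the MRFs. In RMS cells MYOD1 and MYOG are typically present although the cells do not complete differentiation.

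The genes lie at 3 loci of GRCh38. MYOD1 is on chromosome 11 from base 17719571 to base 17722136, and MYOG is on chromosome 1 from base 203083129 to base 203086012. MYF6, at bases 80707634 to 80709474 of chromosome 12, is followed by MYF5 at bases 80716912 to 80719671, with 7437 bases between them. RefSeq promoter windows, from 250 bases before the transcription start to 50 bases after it, were found for 3 of the 4 genes, MYF5, MYF6 and MYOG. The windows of MYOG and MYF6 are shown because these were the genes whose transcripts differed most, as ratios, between shSCR and shSKP2.2. Capitals mark E-boxes (CANNTG) and matches to the core of the site bound by MEF2 factors (TA, then 4 bases that are each A or T, then TA). Both motifs read alike on either strand. The MYOG window is chr1:203085963-203086262 on the minus strand and the MYF6 window chr12:80707384-80707683 on the plus strand (GRCh38.p14), written 5′ to 3′ along the gene.
MYOG: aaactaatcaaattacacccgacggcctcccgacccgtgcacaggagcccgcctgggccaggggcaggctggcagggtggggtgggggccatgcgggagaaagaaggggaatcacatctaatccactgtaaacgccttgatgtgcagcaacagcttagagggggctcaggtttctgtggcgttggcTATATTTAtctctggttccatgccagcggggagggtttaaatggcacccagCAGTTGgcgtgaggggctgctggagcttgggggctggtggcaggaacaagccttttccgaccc
MYF6: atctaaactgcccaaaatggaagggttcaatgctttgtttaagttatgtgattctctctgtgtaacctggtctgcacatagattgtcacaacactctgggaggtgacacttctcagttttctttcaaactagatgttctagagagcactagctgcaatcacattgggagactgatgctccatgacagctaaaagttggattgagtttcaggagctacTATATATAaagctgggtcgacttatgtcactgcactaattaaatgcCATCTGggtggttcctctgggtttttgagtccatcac

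The MYOG window held 1 E-box, CAGTTG, at positions -13 to -8 from the start, and 1 MEF2 core, TATATTTA, at -64 to -57. In the MYF6 window the E-box CATCTG stood at positions 13 to 18. Its MEF2 core, TATATATA at -33 to -26, overlapped a TATA box at -29 to -24 (TATAAA on the strand of the gene), so that the letters serve both patterns. The MYF5 window held the E-box CAAATG at -222 to -217, a TATA box at -28 to -23 and 0 MEF2 cores. An E-box is frequent at this length, with at least 1 in 68.9% of the 27305 promoter windows of RefSeq genes. The MEF2 core was found in 8.52% of them and TATAAA in 7.71%. A match describes the letters of a window. The study measured MYOD binding by ChIP-seq in RD cells and reported it at the MYOG region, but those data were not used here.

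Levels are given as TPM, a measure of transcript abundance that is already corrected for transcript length, so that genes can be compared within a library. The TPM of a library sum to the same total, and short structural RNAs, mainly of the 7SL and 7SK kind, took 50.1% of it in shSCR and 62.3% in shSKP2.2 cells of RD, and 57.1% and 64.9% in those of JR1. In either line shSKP2.2 cells had the larger share, and the values of most other genes were lower in them. A change is the log2 ratio of shSKP2.2 to shSCR within a line, with 1 added to each TPM, which understates changes of genes near 0. Its median over the 12985 genes that averaged 1 TPM or more (the tested genes) stood at -0.27 for RD and -0.21 for JR1. Changes are given beside those medians and after removal of the short structural RNA genes, when the medians were 0.10 and 0.03. A gene is said to have risen or fallen past a change of 1. The knockdown itself was seen in both lines, where SKP2 fell in RD from 92.8 to 7.40 TPM and in JR1 from 46.5 to 2.72 TPM. Depth cannot be read from TPM.

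The muscle label was checked on genes other than the MRFs. DES, CHRNA1, CHRNG, CDH15, MYMK and ACTC1 were above 1 TPM in all 4 libraries. Their summed level was between 587 TPM in RD shSCR and 2307 TPM in JR1 shSKP2.2. ACTC1 alone gave 299.8 and 1741 TPM of these sums, whereas MYMK was at 1.22 TPM in RD shSCR. Markers of blood cells summed to at most 0.080 TPM, those of endothelium to at most 0.450 TPM and those of neurons to at most 1.59 TPM. HBB was listed at 0 in every library. Of 4 epithelial markers, the keratins KRT8 and KRT18 were present, with KRT18 between 80.8 and 202 TPM, whereas EPCAM and CDH1 did not exceed 0.160 TPM. The smooth muscle marker CNN1 was between 1.61 and 6.29 TPM and MYH11 at most 0.110 TPM.

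MYOD1 and MYOG made up nearly all MRF transcripts in both lines, MYF6 did not exceed 0.500 TPM and MYF5 was listed at 0 in all 4 libraries. In RD shSCR the 4 genes summed to 118.6 TPM, of which MYOD1 held 73.3% and MYOG 26.6%. In JR1 shSCR they summed to 154.7 TPM, with 65.0% from MYOD1 and 34.9% from MYOG. With shSKP2.2 the sum was 152.5 TPM in RD and 238.8 TPM in JR1, and the share of MYOG was 38.3% and 44.9%. MYF6 held at most 0.210% of the sum in any library. MYOD1 was thus the leading factor in each library and MYOG came closest to it in JR1 shSKP2.2.

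The study followed MYOD1, the lineage-committing factor, as protein and also as transcript by PCR. In these libraries MYOD1 stood at 87.0 TPM with shSCR and 93.8 TPM with shSKP2.2 in RD, and at 101 and 131 TPM in JR1. This is also the order of the levels, lowest first, and no spread between replicates is known against which neighbors in it could be told apart. JR1 shSCR lay above RD shSKP2.2, so the conditions overlapped across the lines. The gene was among the highly expressed ones in each library, from rank 757 of 19081 protein-coding genes in RD shSCR to rank 250 in JR1 shSKP2.2. Its change with shSKP2.2 was 0.11 in RD and 0.38 in JR1, below 1 in both. Measured from the median of all tested genes it was 0.38 and 0.59, and after removal of the short structural RNA genes 0.51 and 0.67. The sign was positive in each of these settings, whereas 17.1% of tested genes in RD and 9.92% in JR1 had a change as high as that of MYOD1 or higher.

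MYOG, which encodes myogenin, was the MRF whose level differed most in TPM between the conditions. Its level in RD was 31.6 TPM with shSCR and 58.4 TPM with shSKP2.2, and in JR1 54.0 and 107 TPM. Both shSKP2.2 values were above both shSCR values, although JR1 shSCR and RD shSKP2.2 were neighbors in the order. The ratio of shSKP2.2 to shSCR was 1.85 in RD and 1.99 in JR1. MYOG moved from rank 2535 of the protein-coding genes to rank 878 in RD, and from rank 1109 to rank 312 in JR1.

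On the log2 scale the change of MYOG was 0.87 in RD and 0.98 in JR1, just under the limit of 1 with the TPM as deposited. A change as high or higher was found in 1.52% of tested genes in RD and 1.89% in JR1. The limit was passed when changes were measured from the median of all tested genes (1.14 in RD and 1.19 in JR1) and with the short structural RNA genes left out (1.28 and 1.27). After centring, 2.09% of tested genes in RD and 2.99% in JR1 were at or above that limit. The shares as high as MYOG or higher stayed at 1.52% and 1.89%. Of the 4 MRFs, 2 were tested genes, MYOD1 and MYOG. With the TPM as deposited, 0 of these 2 had thus risen, where 1.08% of tested genes had in RD and 1.78% in JR1. After the removal MYOG alone had risen, in both lines, where 3.76% of tested genes had in RD and 4.69% in JR1, and it had among protein-coding genes alone (1.3 and 1.25), where 3.74% and 4.69% had. In that last setting MYF6, below the filter, also passed 1 in JR1 (1.03). Whether MYOG is counted as a rise therefore depends on the scaling, and its positive sign does not.

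Because a ratio of genes within a library does not depend on what the TPM are scaled to, MYOG was also set against MYOD1. For each MYOD1 transcript RD cells had 0.363 of MYOG with shSCR and 0.622 with shSKP2.2. JR1 cells had 0.536 and 0.818. It was thus 1.71 times as high with shSKP2.2 in RD and 1.52 times as high in JR1, or 0.78 and 0.61 as a log2 difference. RD shSCR had the lowest and JR1 shSKP2.2 the highest ratio, and RD shSKP2.2 lay above JR1 shSCR.

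MYF6 did not pass the filter of a mean of 1 TPM. In RD it was listed at 0.060 TPM with shSCR and 0.240 TPM with shSKP2.2, and in JR1 at 0.130 and 0.500 TPM. Both shSKP2.2 values were above both shSCR values. shSKP2.2 over shSCR gave a ratio of 4.0 in RD and 3.85 in JR1, and the rounding of the deposited values alone allows 3.62 to 4.45 in RD and 3.67 to 4.04 in JR1. With TPM + 1 these ratios shrink to log2 changes of 0.23 and 0.41, and with 0.1 TPM added in place of 1 they are 1.09 and 1.38, past a limit that 2.15% of tested genes in RD and 2.91% in JR1 passed with 0.1 TPM. Among protein-coding genes alone the change was 0.65 in RD and 1.03 in JR1.

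How few transcripts this is can be read from other genes. Among 998 protein-coding genes whose canonical transcript is within 10% of the 1329 bases of MYF6, the lowest value above 0 was 0.010 or 0.020 TPM in the 4 libraries. In RD shSCR 58 of these genes were above 0 and no higher than MYF6, and in JR1 shSKP2.2 184 were. A further 312 of the 998 were listed at 0 in RD shSCR, and 273 in JR1 shSKP2.2. The counts behind the MYF6 values are not known, so that a counting error cannot be attached to their ratios.

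MYF5 was listed at 0 in every library, and no fold can be given for it. None of 20 genes that every cell uses, such as ACTB, TBP and HPRT1, was listed at 0, and the lowest value among them was 6.0 TPM. They were picked for being expressed everywhere, so they cannot tell a silent gene from one below detection. MYF5 shared the listing at 0 in all 4 libraries with 11.8% of the 19081 protein-coding genes. Of 1264 such genes with a canonical transcript within 10% of the 1540 bases of MYF5, between 25.6% and 27.4% were listed at 0 in a library.

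The genes around each MRF were read as its local background. LIN7A, the next coding gene beyond MYF5, did not exceed 0.030 TPM, and PTPRQ, before MYF6, was between 0.380 and 1.48 TPM. PTPRQ was lower with shSKP2.2 in both lines, by changes of -0.20 and -0.20. The medians of all tested genes were -0.27 and -0.21, so it was not lower than most genes. On chromosome 1, PPFIA4, which is 4392 bases from MYOG, went in RD from 3.68 to 5.42 TPM and in JR1 from 6.55 to 7.79 TPM. ADORA1, an adenosine receptor gene on the other side of MYOG at 41692 bases, went in RD from 16.2 to 23.6 TPM and in JR1 from 17.7 to 33.5 TPM. Both neighbors of MYOG thus had more TPM with shSKP2.2. With the TPM as deposited their changes were 0.46 and 0.22 for PPFIA4 and 0.52 and 0.88 for ADORA1, all below 1. Those of MYOG, 0.87 and 0.98, were below 1 as well. Measured from the median of all tested genes in JR1 (-0.21), ADORA1 would pass 1 there, as MYOG did. Beside MYOD1, the potassium channel gene KCNC1 went in RD from 3.25 to 3.66 TPM and in JR1 from 5.29 to 6.09 TPM, and OTOG did not exceed 0.030 TPM.

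RD and JR1 differed in their MRF levels as well. In shSCR cells MYOD1 was 1.16 times and MYOG 1.71 times as high in JR1 as in RD, log2 differences of TPM + 1 of 0.21 and 0.76. In shSKP2.2 cells the differences were 0.48 for MYOD1 and 0.87 for MYOG. 0 of the 2 tested MRFs, MYOD1 and MYOG, differed by 1 or more. In shSCR cells 3.44% of tested genes were that much higher in JR1 and 6.5% that much lower. In shSKP2.2 cells 2.7% and 5.39% were. The median difference of all tested genes was -0.23 in shSCR and -0.17 in shSKP2.2 cells. After removal of the short structural RNA genes MYOG differed by 0.98 in shSCR and 0.97 in shSKP2.2 cells, and MYOD1 by 0.43 and 0.58. MYOG passed 1 when differences were centred in shSKP2.2 cells (1.04), where 3.7% of tested genes were higher in JR1 by 1 or more. Among protein-coding genes alone MYOG passed 1 in both conditions (1.07 and 1.02), where 6.78% and 4.93% were higher by 1 or more. MYF6 was higher in JR1 in both conditions, and no test was run of whether the lines differ.

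The genes that MRFs work with were taken from lists of dimer partners, inhibitors, cofactors and target genes. The E proteins TCF3, TCF4 and TCF12 are the partners of the MRFs. TCF3 went in RD from 64.1 to 59.0 TPM and in JR1 from 44.2 to 44.02 TPM. 0 of the 3 passed 1 in either direction. Rises were 1.08% of all tested genes in RD and 1.78% in JR1, and falls 7.37% and 9.05%, so few calls would fall among 3 genes. The median change of the E proteins was -0.13 in RD and -0.01 in JR1, but 0.27 and 0.28 after removal of the short structural RNA genes. In RD the summed MRFs were 1.07 times the summed E proteins with shSCR and 1.56 times with shSKP2.2. In JR1 they were 1.96 and 3.03 times the E proteins.

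Most inhibitors of muscle bHLH factors had less TPM after SKP2 depletion, 11 of the 12 tested in each line, where only 24.6% of all tested genes in RD and 30.9% in JR1 had a change above 0. Of a list of 15, 0 of the tested genes rose and 4 fell in RD, and 0 rose and 5 fell in JR1. Falls were 7.37% of all tested genes in RD and 9.05% in JR1, and rises 1.08% and 1.78%. The median change of the inhibitors was -0.78 in RD and -0.92 in JR1, or -0.41 and -0.64 after removal of the short structural RNA genes. ID3 fell in RD from 343 to 149.9 TPM and in JR1 from 248 to 50.1 TPM, and ID1 went from 391 to 210.4 TPM in RD, a change of -0.89, and fell from 196 to 64.2 TPM in JR1. MDFI, which holds MRFs in the cytoplasm, fell in both lines, and so did HES1, a Notch target that represses MYOD1, in RD from 8.30 to 1.21 TPM and in JR1 from 17.4 to 3.14 TPM. SNAI2, a repressor that competes for E-boxes, was the exception with the TPM as deposited. It was at 29.4 and 38.8 TPM in RD and 36.2 and 60.2 TPM in JR1. After removal of the short structural RNA genes 2 of 14 tested fell in RD, MDFI and HES1, and 5 in JR1. Falls were then 3.41% and 6.71% of all tested genes. SNAI2 passed 1 in JR1 (1.01), where 4.69% of all tested genes rose. In each line 3 of the 14 were then above 0, as were 59.1% of all tested genes in RD and 52.5% in JR1. ID3 was then at -0.79 in RD.

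As a ratio within libraries, the summed ID1, ID2, ID3 and ID4 transcripts were 6.39 times the summed MRFs with shSCR and 2.44 times with shSKP2.2 in RD. In JR1 they were 2.92 and 0.497 times the MRFs. MRF transcripts outnumbered those of the ID genes in JR1 shSKP2.2, and in the other 3 libraries the order was the reverse.

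**Figure D1:**
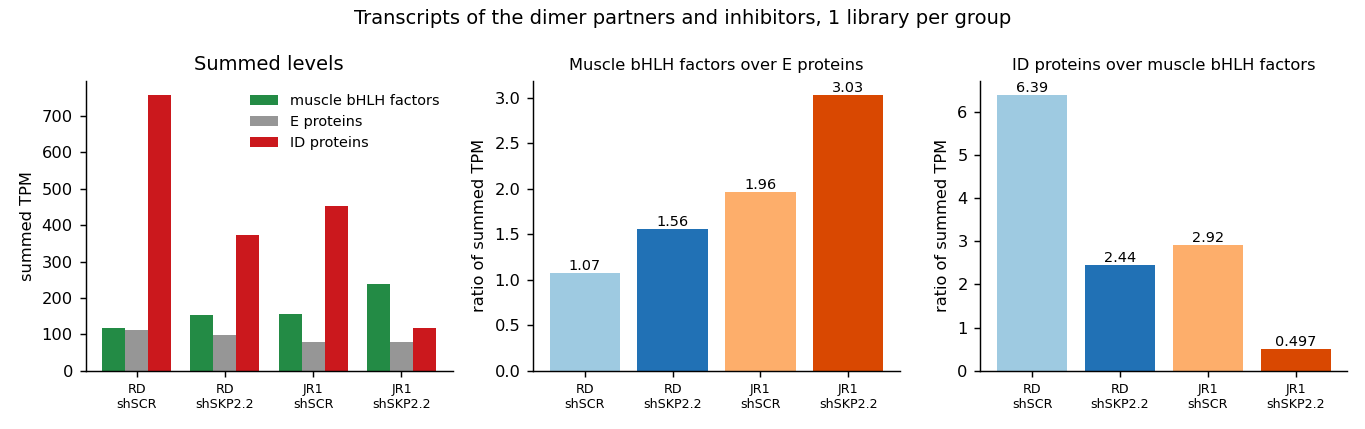
Summed TPM of the muscle bHLH factors, E proteins and ID proteins (left), and ratios of these sums (center and right), 1 library per group without error bars. In both lines the muscle bHLH factors are higher relative to E proteins with shSKP2.2, and the ID proteins are lower relative to the muscle bHLH factors, with 0.497 as the lowest ratio, in JR1 shSKP2.2.

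MEF2 factors bind beside MRFs at muscle genes and act on the MYOG promoter. In RD, MEF2C was at 0.980 TPM with shSCR and 2.05 TPM with shSKP2.2, a change of 0.62, and in JR1 it rose from 1.76 to 18.7 TPM. In RD MEF2A went from 7.94 to 10.51 TPM, and it rose in JR1 from 9.39 to 21.0 TPM. MEF2D, the highest of the 4, went in RD from 34.0 to 35.0 TPM and in JR1 from 32.4 to 45.6 TPM. MEF2B stayed between 1.24 and 1.99 TPM. Thus 0 of 4 rose in RD and 2 of 4 in JR1, with medians of 0.20 and 0.78, where rises were 1.08% and 1.78% of all tested genes. After removal of the short structural RNA genes MEF2C passed 1 in RD too (1.12).

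Of 14 factors that act upstream of the MRFs, 13 were tested. None rose and 4 fell in RD, and 1 rose and 4 fell in JR1. Rises were 1.08% of all tested genes in RD and 1.78% in JR1, and falls 7.37% and 9.05%. The factors had median changes of -0.28 and -0.04, or 0.08 and 0.25 after removal of the short structural RNA genes. PAX7, the satellite cell factor, fell in RD from 10.8 to 3.36 TPM and in JR1 from 4.84 to 1.16 TPM, whereas PAX3 went from 10.9 to 10.7 TPM and from 9.44 to 7.76 TPM. KLF4 had the lowest change of the list in both lines, in RD from 75.3 to 10.2 TPM and in JR1 from 47.7 to 7.41 TPM. EYA3, a transcriptional cofactor and phosphatase, had the highest change in both lines and went in RD from 19.3 to 25.9 TPM (0.41) and rose in JR1 from 13.6 to 30.2 TPM. PAX7, KLF4, PITX3 and NFIX, the 4 falls, were common to both lines. After that removal NFIX no longer passed the limit in either line and PITX3 only in RD, while EYA1 passed 1 in JR1 (1.24).

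Among 12 coactivators were the acetyltransferase EP300 and the chromatin remodeler subunits SMARCA4 and SMARCD3. Of the 12, 11 were tested and 0 passed 1 in either direction in either line. Rises were 1.08% of all tested genes in RD and 1.78% in JR1, and falls 7.37% and 9.05%. At those shares a list this short would hold few calls or none. The median change of the coactivators was -0.26 in RD and -0.08 in JR1. After removal of the short structural RNA genes it was 0.15 and 0.22. The 12 were then all tested and the acetyltransferase KAT2B passed 1 in JR1 (1.24), where 4.69% of all tested genes rose. SMARCA4 was the highest, at 0.06 in RD and 0.28 in JR1. The lowest were RB1 in RD (-0.84) and CARM1 in JR1 (-0.45).

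Genes that MRFs switch on during differentiation were followed in a list of 28, of which 27 were tested. In RD 4 rose and 1 fell, and in JR1 10 rose and 2 fell, beside rises of 1.08% and 1.78% and falls of 7.37% and 9.05% of all tested genes. The medians of the list were 0.33 and 0.61. These values describe a list whose direction was known from earlier results of the same libraries. KLHL41, a sarcomere assembly protein, rose in RD from 81.1 to 243 TPM and in JR1 from 106 to 448 TPM. The myosin light chain gene MYL1 had the highest change in both lines (3.89 and 3.41). MYH8, a perinatal myosin heavy chain, rose from 0.660 to 3.56 TPM and from 0.380 to 6.13 TPM. The muscle creatine kinase gene CKM went from 2.92 to 6.65 TPM in RD (0.96) and rose from 5.01 to 36.7 TPM in JR1.

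The list did not move as a block. ITGA7, a laminin receptor subunit, had the lowest change and fell in RD from 13.0 to 4.31 TPM and in JR1 from 50.9 to 13.3 TPM. MYMX, which drives the last step of myoblast fusion, went from 3.26 to 1.62 TPM in RD (-0.70) and fell from 12.2 to 3.92 TPM in JR1. The acetylcholine receptor gene CHRND was lower with shSKP2.2 in both lines (-0.76 and -0.60), whereas CHRNA1 was higher (0.67 and 0.58). After removal of the short structural RNA genes, 10 of 28 rose and 1 fell in RD, and 11 rose and 2 fell in JR1, beside rises of 3.76% and 4.69% of all tested genes and falls of 3.41% and 6.71%. MYOG itself, with 0.87 and 0.98, lay above the median of the list in both lines and MYOD1 below it.

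MYOD1 and MYOG were also ranked against other tissue-restricted bHLH factors, which serve as lineage factors in neurons, blood, tendon and other tissues. Of the 35 on the list, between 14 and 18 were listed at 0 in a library, and between 3 and 5 reached 1 TPM. SCX, a tendon factor, and TAL2 were the highest. SCX was at 19.9 TPM with shSCR and 16.8 TPM with shSKP2.2 in RD, and at 30.0 and 29.8 TPM in JR1. MYOD1 was between 3.36 and 5.60 times the highest other factor of each library, and MYOG was above them all in the 4 libraries. 5 of the 35 were tested, and their median change was -0.24 in RD and -0.01 in JR1, against 0.13 and 0.28 after removal of the short structural RNA genes. 0 rose and 1 fell in each line, where rises were 1.08% and 1.78% of all tested genes and falls 7.37% and 9.05%. The fall was that of ATOH8. In RD it went from 7.40 to 3.19 TPM (-1.00, but -0.74 after that removal) and in JR1 from 3.16 to 0.600 TPM. The highest were BHLHA15 in RD and TAL2 in JR1, both at 0.34. After the removal ATOH7 passed 1 in JR1 (1.27), from 0.150 and 0.790 TPM as deposited.

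The genes most like MYOD1 and MYOG were found by the Euclidean distance of log2(TPM + 1) over the 4 libraries, after each gene was centred on its own mean, among 12846 tested genes without short structural RNAs. Nearest to MYOG were TMEM38A (0.14), an intracellular cation channel gene, PTGS1 (0.16), which encodes cyclooxygenase 1, and BICDL1 (0.17). TMEM38A was at 3.67 and 6.73 TPM in RD and at 7.15 and 13.7 TPM in JR1. PTGS1 was at 1.33 and 3.25 TPM in RD and at 2.57 and 5.85 TPM in JR1. BICDL1 was at 0.200 and 1.19 TPM in RD and at 0.760 and 2.89 TPM in JR1. As plain ratios PTGS1 and BICDL1 changed more than MYOG, and their nearness rests on the 1 TPM added to such low values. Nearest to MYOD1 were SEMA6D (0.04), MAPK8IP1 (0.04) and ADARB1 (0.06), and MYOG was at a distance of 0.83 from MYOD1. These distances rest on 4 values per gene and are a description.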

How the data were processed

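The authors selected poly-A RNA, prepared directional libraries, read pairs of 150 bases, aligned them to GRCh38 with STAR 2.7.9a and deposited 1 TPM value per gene from RSEM 1.3.2, with 2 decimals and RefSeq gene names. The annotation release is not given in the sources used here. TPM were used as deposited. Genes that averaged 1 TPM or more across the 4 libraries were tested, and changes were taken on the log2(TPM + 1) scale with a limit of 1. As each line and condition had 1 library, depth was unknown and no significance test was run. Alternatives were 0.1 TPM in place of 1, centring on the median, removal of 2634 short structural RNA genes by symbol, other minimum levels, and, added after the data were seen, the 19081 genes that are protein-coding in RefSeq (36588 of 39323 symbols matched). Named genes were the MRFs, SKP2, all E proteins and MEF2 factors, the extremes of each list, the coding neighbors and the 3 nearest patterns. Other genes, the ratios of sums and the genes compared by length were chosen after their values were seen. Members and lists were chosen with earlier results of these data known. 1 gene of the lists is not reported here. The code that calls rises and falls was run on simulated data with large planted changes and little noise. That run checks the code and does not show how reliable the calls in these libraries are. Transcript lengths came from GENCODE release 44. Python 3.11.15, numpy 2.4.6, pandas 2.3.3 and matplotlib 3.10.9 were used.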

Additional observations from a re-analysis of the deposited data

Results flagged for a closer look

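Of the tested genes named in the sections above, 7 had changes of opposite sign in the lines. The share of all tested genes with opposite signs is not given here, so this count has no background. It also leaves out tested list genes not named above, such as MYH3, TNNT1, TNNC1, SIX4 and CREBBP, which had opposite signs too. MYH3, lower in RD and past the limit of 1 in JR1, had a wider gap between the lines than any of the 7. These differences were not tested, since there is 1 library per condition. TAL2, a bHLH factor of the blood lineage, went in RD from 25.5 to 16.3 TPM and in JR1 from 13.3 to 17.1 TPM, so that its change in RD was lower than that in JR1 by a log2 difference of -0.95. For MEF2B the difference was -0.59, with changes of -0.42 in RD and 0.17 in JR1, and its TPM were all below 2. For DES, the muscle intermediate filament gene, it was 0.64, with 39.3 and 43.4 TPM in RD and 51.3 and 36.0 TPM in JR1. The signs of these 3 genes were opposite in all 5 ways of treating the TPM.

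TCF12, an E protein, differed by -0.42, with 21.0 and 15.6 TPM in RD and 16.4 and 16.7 TPM in JR1, and among protein-coding genes alone it was above 0 in both lines. For KRT18 the difference was -0.34, for the acetylcholine receptor gene CHRNG 0.31 and for EP300 -0.28. After removal of the short structural RNA genes the changes of these last 3 were above 0 in both lines.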

How the results depend on the processing

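Each shSKP2.2 library was compared with the shSCR library of its own line. With 1 library per line and condition no paired test was run, and no replicate could be left out. A fit that takes the lines as replicates of a condition was not run. The changes of MYOD1, MYOG and MYF6 were positive in both lines in every setting run, and so were the differences of JR1 over RD. Without replicates no spread is known, so every shift of 0.01 or more is printed for MYOD1 and MYOG, and counts of genes where they moved by over 1.5 times. For MYOD1, where 0.1 TPM in place of 1 moved no value, centring on the median gave 0.38 in RD and 0.59 in JR1, removal of short structural RNA genes 0.51 and 0.67, and protein-coding genes alone 0.54 and 0.65. The differences of JR1 over RD in shSCR and in shSKP2.2 cells were 0.44 and 0.65 with centring, 0.43 and 0.58 with removal, and 0.52 and 0.63 with protein-coding genes alone. For MYOG the changes in RD and JR1 were 0.89 and 0.99 with 0.1 TPM, 1.14 and 1.19 with centring, 1.28 and 1.27 with removal, and 1.3 and 1.25 with protein-coding genes alone. Its differences between the lines in shSCR and shSKP2.2 cells were 0.77 and 0.88 with 0.1 TPM, 0.99 and 1.04 with centring, 0.98 and 0.97 with removal, and 1.07 and 1.02 with protein-coding genes alone.

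Over all tested genes, rises numbered 140 in RD and 231 in JR1, and falls 957 and 1175. Rises were 279 and 378 with 0.1 TPM, 272 and 388 with centring, 553 and 690 with removal, 480 and 602 with protein-coding genes alone, and 87 and 143 at a minimum mean of 5 TPM, which leaves fewer genes. Falls were 458 and 710 with centring. In RD they were 501 with removal and 459 with protein-coding genes alone. Depth is unknown, so no counting error could be given for low values such as those of MYF6.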
